A study of Mus musculus with 8 samples.

Results

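Interferon-stimulated genes are the genes that a cell switches on after type I interferon binds its receptor, and 32 of them were followed in mouse skin. Gene positions are those of the deposited table, on mouse chromosomes of mm10 (GRCm38). The genes were taken from the deposited table of 34745 genes by a list of 32 symbols, and each symbol matched 1 row. All 32 passed the filter on low counts that left 15684 genes for testing. RNA sequencing measured whole skin lesions of mice in 8 libraries, and the labels do not say whether each library came from a separate animal. The mice of the 4 libraries labelled NcstnΔKC carried 2 floxed alleles of Ncstn, the gene for the γ-secretase subunit nicastrin, together with the tamoxifen-inducible recombinase Krt14 CreER, which the Krt14 promoter drives in basal keratinocytes. Tamoxifen was given to them by gavage from an age of 8 weeks, in a first course of 5 days at a daily 20 mg per kg, with later doses 10 days apart. The mice of the 4 libraries labelled normal received corn oil. The growth protocol gives them the same floxed alleles and recombinase, whereas their genotype label reads wildtype. All were labelled male and were killed at 16 weeks of age.

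Type I interferons are secreted when sensors in the cell meet foreign or misplaced nucleic acid. Their receptor, made of Ifnar1 and Ifnar2, acts through the kinases Jak1 and Tyk2 on STAT factors. Among these, Stat2 joins Irf9 in a complex that binds the interferon-stimulated response element (ISRE) in the promoters of the induced genes. In skin, keratinocytes and the immune cells among them both make and answer interferon, and a raised interferon-stimulated programme is well known in inflamed skin.

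The promoters show how the element sits in members on both sides of the comparison. Oas3 was higher in the libraries labelled NcstnΔKC, and Oas1a lies in its cluster. Isg15 and Ifit3 were lower in those libraries, and Ifit1 lies in the cluster of Ifit3 but was not called. The 5 stretches are the 160 bases before the start site of each of these genes. They are from RefSeq on GRCm38.p6, read 5′ to 3′ on the gene's strand, with the bases of each match to GAAANNGAAA, on either strand, in capitals.
Oas3, chr5:120777660-120777819, minus strand: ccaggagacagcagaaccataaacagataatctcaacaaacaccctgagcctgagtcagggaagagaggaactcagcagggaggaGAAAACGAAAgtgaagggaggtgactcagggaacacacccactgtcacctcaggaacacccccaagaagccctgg
Oas1a, chr5:120907526-120907685, minus strand: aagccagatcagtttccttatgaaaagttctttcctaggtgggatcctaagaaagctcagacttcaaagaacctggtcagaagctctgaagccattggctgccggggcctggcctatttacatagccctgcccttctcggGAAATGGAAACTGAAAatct
Isg15, chr4:156200819-156200978, minus strand: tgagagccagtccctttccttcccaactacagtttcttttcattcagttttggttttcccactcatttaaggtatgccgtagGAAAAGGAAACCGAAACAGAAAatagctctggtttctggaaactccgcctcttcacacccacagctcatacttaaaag
Ifit3, chr19:34583369-34583528, plus strand: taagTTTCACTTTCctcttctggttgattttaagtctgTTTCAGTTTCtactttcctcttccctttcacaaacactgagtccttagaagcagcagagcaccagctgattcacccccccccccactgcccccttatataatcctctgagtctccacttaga
Ifit1, chr19:34640729-34640888, plus strand: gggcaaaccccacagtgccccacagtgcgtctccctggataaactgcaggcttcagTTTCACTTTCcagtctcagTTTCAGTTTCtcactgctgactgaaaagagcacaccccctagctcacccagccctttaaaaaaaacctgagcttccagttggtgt
Isg15 has 3 overlapping matches, Oas1a has 2 overlapping matches, Ifit3 and Ifit1 have 2 separate ones each, and Oas3 has 1. In Ifit3 and Ifit1 the capitals are the motif on the opposite strand.

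RefSeq windows from 250 bases before to 50 bases after the start were found for 22 members. They were not found for Dhx58, Zbp1, Usp18, Oas2, Mx1, Mx2, Parp9, Parp14, Ifi27l2a and Rtp4. GAAANNGAAA occurred on either strand in 11 of the 22, among them also Bst2, Stat2, Rsad2, Ifih1, Ddx58 and Eif2ak2, and in 3.99% of all 27025 genes with a window. Counted by window, it was in 11 of 26 windows of members and in 3.44% of all 32851 windows of that length. The motif TTCNNNGAA, the element of the interferon-gamma response, occurred in 6 of the 22 members and in 9.55% of all genes, or in 6 of 26 windows of members and 8.3% of all windows. In Bst2 it overlaps an ISRE match. Of the 11 members with an ISRE match, 1 was higher, 2 were lower and 8 were not called in the comparison described next, with a median log2 fold change of 0.07. Of all genes tested in that comparison, 21.4% were higher and 22.7% lower. Of the 11 members with a window but no match, 1 was higher, 1 was lower and 9 were not called, with a median of 0.05.

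Some libraries stood apart or went against their labels. Total counts were 11881506 to 12893174 in the NcstnΔKC libraries and 5835422 to 8663753 in the normal libraries. Ncstn itself was 66.8, 50.2, 57.8 and 56.2 CPM (normalised count: the gene's count over the library's TMM-scaled size, times 1e+06) in NcstnΔKC replicates 1 to 4, against 60.7, 61.9, 61.3 and 58.4 CPM in normal replicates 1 to 4, or -0.07 ± 0.12 as log2 fold change with its SE (adjusted p = 0.663 by edgeR's quasi-likelihood test). By that test the targeted gene in whole skin did not bear out the label. Over 25 alternative fits the value ran from -0.72 to 0.24, and 1 of them gave an adjusted p under 0.05. Counts over the gene in whole skin cannot show its loss in keratinocytes alone. Directions below refer to the libraries labelled NcstnΔKC. Xist, the transcript of the inactive X chromosome, had 36905 to 37109 counts in NcstnΔKC replicates 3 and 4 and 22304 to 24421 counts in normal replicates 3 and 4, but 4 to 7 and 8 to 9 counts in replicates 1 and 2 of the same groups, although all mice were labelled male. NcstnΔKC replicate 1 lay at 83.4 on the second principal component, which held 13.5% of the variance, and the other 3 NcstnΔKC libraries lay between -28.8 and -19.4. Mitochondrial genes held 0.68 to 0.939% of counts in the NcstnΔKC libraries and 3.42 to 5.43% in the normal libraries.

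The 32 genes did not move as 1 block. A gene was called where edgeR's quasi-likelihood test gave it a Benjamini-Hochberg adjusted p, taken over all genes, under 0.05. By that rule Samhd1 and Oas3 were higher in NcstnΔKC skin, while Isg15, Ifit2, Ifit3 and Ifi27l2a were lower. The other 26 were not called. Across all genes tested 21.4% were higher and 22.7% were lower, 44.1% in all, so 2 and 4 of 32 were smaller shares than those of the table as a whole. The members' median log2 fold change was 0.06, beside -0.02 over all genes tested, with 19 members above 0 and 13 below. Without adjustment 8 members had p under 0.05. Scaling moved these counts: by total counts 5323 genes were higher and 2224 lower, 33.9% and 14.2%, beside 3360 and 3555 with TMM, and by basal keratinocyte genes 752 were higher and 7439 lower, 4.79% and 47.4%. The members' counts were then 5 higher and 2 lower, and 0 higher and 13 lower. The groups did not overlap for 1 member higher in NcstnΔKC skin, Samhd1, and for 2 lower, Ifit3 and Ifi27l2a, beside 20.9% and 20.7% of all genes tested. Standard errors of the members' log2 fold changes ran from 0.18 to 0.65 with a median of 0.40, beside 0.24 over all genes tested. In whole tissue, fewer cells of a type and less RNA per cell cannot be told apart.

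**Figure D1:**
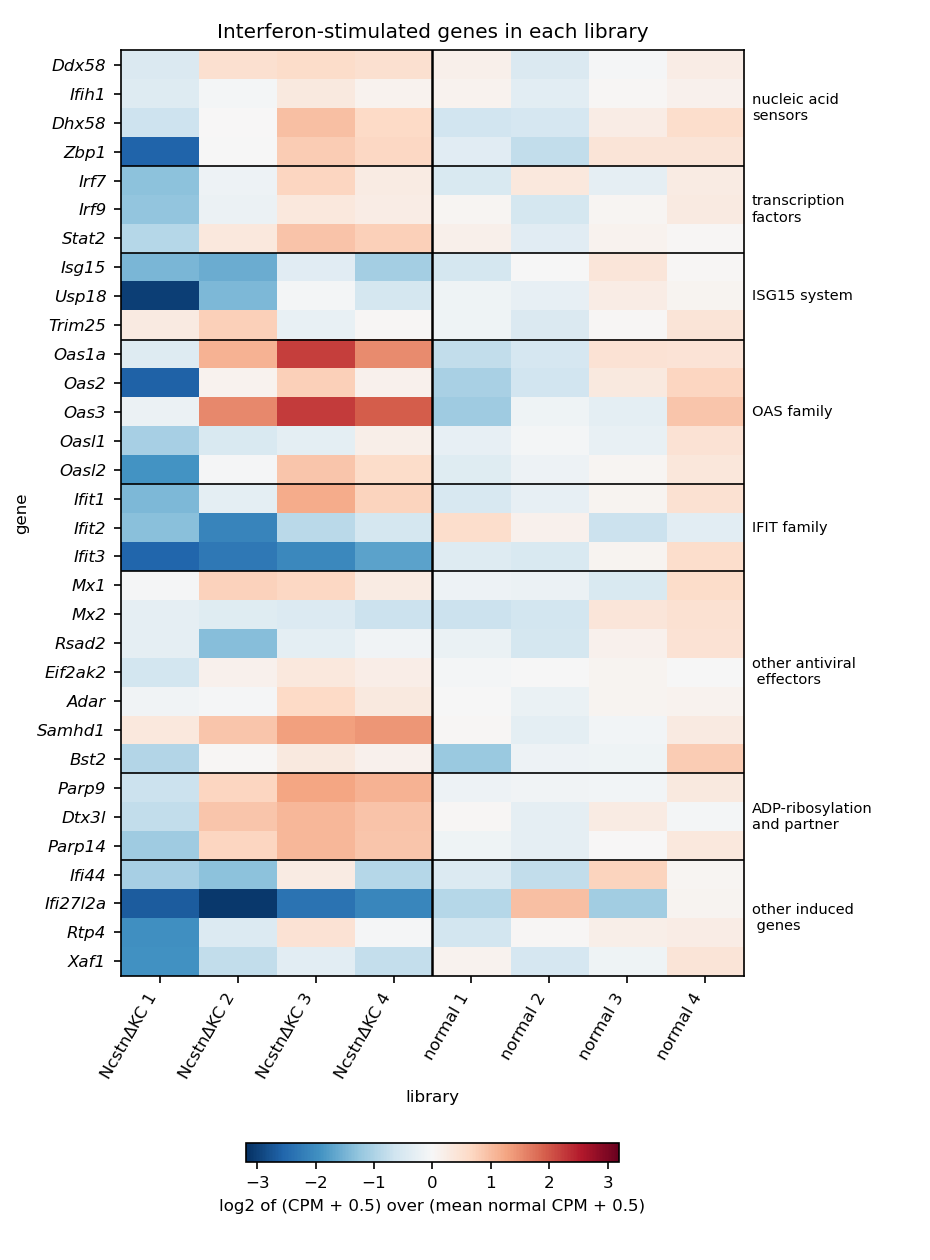
Level of each of the 32 genes (rows, grouped by role) in each library (columns), as log2 of CPM plus 0.5 over the mean normal CPM plus 0.5. Red is above and blue below the normal mean: NcstnΔKC replicate 1 is blue for most genes, replicate 3 is the reddest, and Ifit3 and Ifi27l2a are blue in all 4 NcstnΔKC libraries.

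The members' levels were spread widely within the NcstnΔKC group. The 32 genes together took 0.0434, 0.0972, 0.123 and 0.114% of counts in NcstnΔKC replicates 1 to 4, against 0.0603, 0.0467, 0.0545 and 0.0708% in normal replicates 1 to 4. These shares are over raw library totals. In CPM the sums were 432.6, 836.8, 1079 and 989.5, against 618.3, 549.1, 666.5 and 776.2. A few genes carried much of them: Samhd1, Parp14, Dtx3l and Stat2 had 2623, 2425, 1543 and 1190 of 15611 counts in NcstnΔKC replicate 3. The median over members of the log2 ratio to the normal mean was -1.0, -0.03, 0.53 and 0.22 in NcstnΔKC replicates 1 to 4, against -0.24, -0.28, 0.08 and 0.33 in normal replicates 1 to 4. NcstnΔKC replicate 1 thus had the lowest and NcstnΔKC replicate 3 the highest median, on either side of the normal libraries. NcstnΔKC replicate 1 was below the other 3 NcstnΔKC libraries for 25 of 32 members, beside 37.7% of all genes tested, and was below all 4 normal libraries for 23. NcstnΔKC replicate 3 was the highest of the 8 libraries for 18 members. For the counts of 23 and 18 the shares over all genes were not computed, so neither is read as particular to the members.

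Markers of macrophages and monocytes were also lowest in NcstnΔKC replicate 1. Their 10 genes summed to 565.9, 2802, 3106 and 3541 CPM in NcstnΔKC replicates 1 to 4, against 649, 691.1, 646.8 and 1146 CPM in normal replicates 1 to 4. For 8 of the 10 genes, replicate 1 was the lowest NcstnΔKC library, and Marco was at 0 in all 4 NcstnΔKC libraries. Most of the sum in NcstnΔKC skin came from Cd163 and Mrc1. Of the 9 genes tested, 7 had a log2 fold change above 0 and 2, Ccr2 and Cx3cr1, below. Neutrophil markers, 10 genes, summed to 109.1 to 582.4 CPM in NcstnΔKC skin and 15.49 to 29.44 CPM in normal skin, with 8 of 10 lowest in replicate 1 among the NcstnΔKC libraries and Ly6g at 0 in all normal libraries. Fibroblast markers were lowest in replicate 1 among the NcstnΔKC libraries for 8 of 8 genes, and summed to 4436, 9682, 11400 and 12490 CPM in NcstnΔKC replicates 1 to 4, against 33640, 34590, 4599 and 5351 CPM in normal replicates 1 to 4. The normal libraries without Xist, replicates 1 and 2, thus stood apart from the normal libraries with Xist. Markers of plasmacytoid dendritic cells, the specialised interferon producers, summed to 193.2 to 272.1 CPM in NcstnΔKC skin and 409.2 to 479.6 CPM in normal skin, and replicate 1 was lowest for 0 of 9. Most of that sum came from 3 genes that other cells also express, Tcf4, Ly6d and Cox6a2. Siglech, the defining marker of the list, had 6, 4, 6 and 9 counts in NcstnΔKC replicates 1 to 4, against 8, 11, 8 and 18 counts in normal replicates 1 to 4. T and NK cell markers summed to 39.84 to 86.71 CPM in NcstnΔKC skin and 26.41 to 60.58 CPM in normal skin, but their genes differed. Of the 7 genes tested, 2 were called higher, Cd4 (log2 fold change 2.17) and Cd8a (2.81), and 0 lower. Over the 7, 5 values were above 0 and 2 below, Cd3g (-0.94) and Trdc (-1.55). Across all genes tested 21.4% were higher and 22.7% lower. Basal keratinocyte markers summed to 12650 to 16420 CPM in NcstnΔKC skin and 7789 to 11120 CPM in normal skin. Skeletal muscle markers summed to 3493 to 25100 CPM in NcstnΔKC skin and 17950 to 151900 CPM in normal skin, adipocyte markers to 66.28 to 347.8 CPM and 391.2 to 1151 CPM, and hair follicle markers to 66.29 to 80.36 CPM and 201 to 35560 CPM, the highest in normal replicate 2, with Krt25 and Krt35 at 0 in all NcstnΔKC libraries. Endothelial markers summed to 272.9 to 436.3 CPM in NcstnΔKC skin and 318.6 to 391.7 CPM in normal skin. Markers of differentiated keratinocytes summed to 5931 to 12760 CPM in NcstnΔKC skin and 6534 to 12360 CPM in normal skin. Of the 15 genes tested in that list, 7 were called higher and 3 lower. Among the NcstnΔKC libraries, replicate 1 had the highest sums of muscle (25100 CPM), differentiated keratinocyte (12760), endothelial (436.3), adipocyte (347.8) and plasmacytoid dendritic cell (272.1) markers. It was lowest for 0 of 8 muscle, 0 of 8 endothelial, 1 of 8 adipocyte and 1 of 16 differentiated keratinocyte genes. Its basal keratinocyte sum, 12650 CPM, was the lowest of the group. The part of these cell types in the members' levels was not tested.

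**Figure D2:**
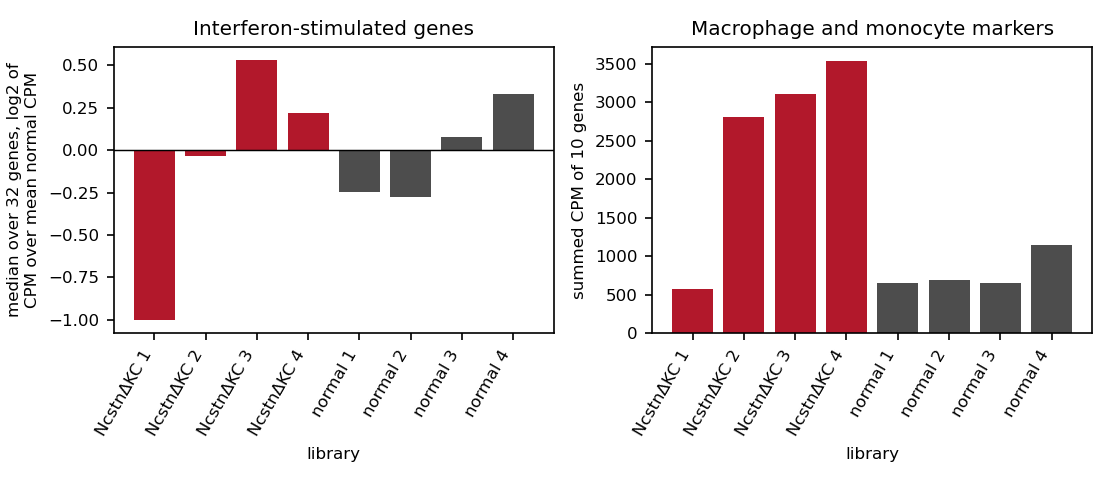
Left, median over the 32 genes of the log2 ratio of CPM to the normal mean in each library. Right, summed CPM of 10 macrophage and monocyte marker genes in the same libraries. In both, NcstnΔKC replicate 1 is the lowest bar, at -1.0 and 565.9, and NcstnΔKC replicates 3 and 4 stand above it. The order of the other bars differs. NcstnΔKC replicate 2 is above all normal libraries on the right, at 2802, but at -0.03 on the left, below normal replicates 3 and 4 (0.08 and 0.33).

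Left out, that library changed which members were called. Without NcstnΔKC replicate 1, 8 members were higher, Samhd1, Oas3, Oas1a, Ddx58, Stat2, Parp9, Dtx3l and Parp14, and 2 were lower, Ifit3 and Ifi27l2a. In that fit 24.4% of all genes tested were higher and 26% were lower. The members' median log2 fold change was then 0.29, and the value was above that of the fit with all 8 libraries for 29 of 32 members. Replicate 1 was the lowest NcstnΔKC library for 25 members, so leaving it out by itself raises their values. The calls gained describe that omission and are not separate evidence of a change.

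**Figure D3:**
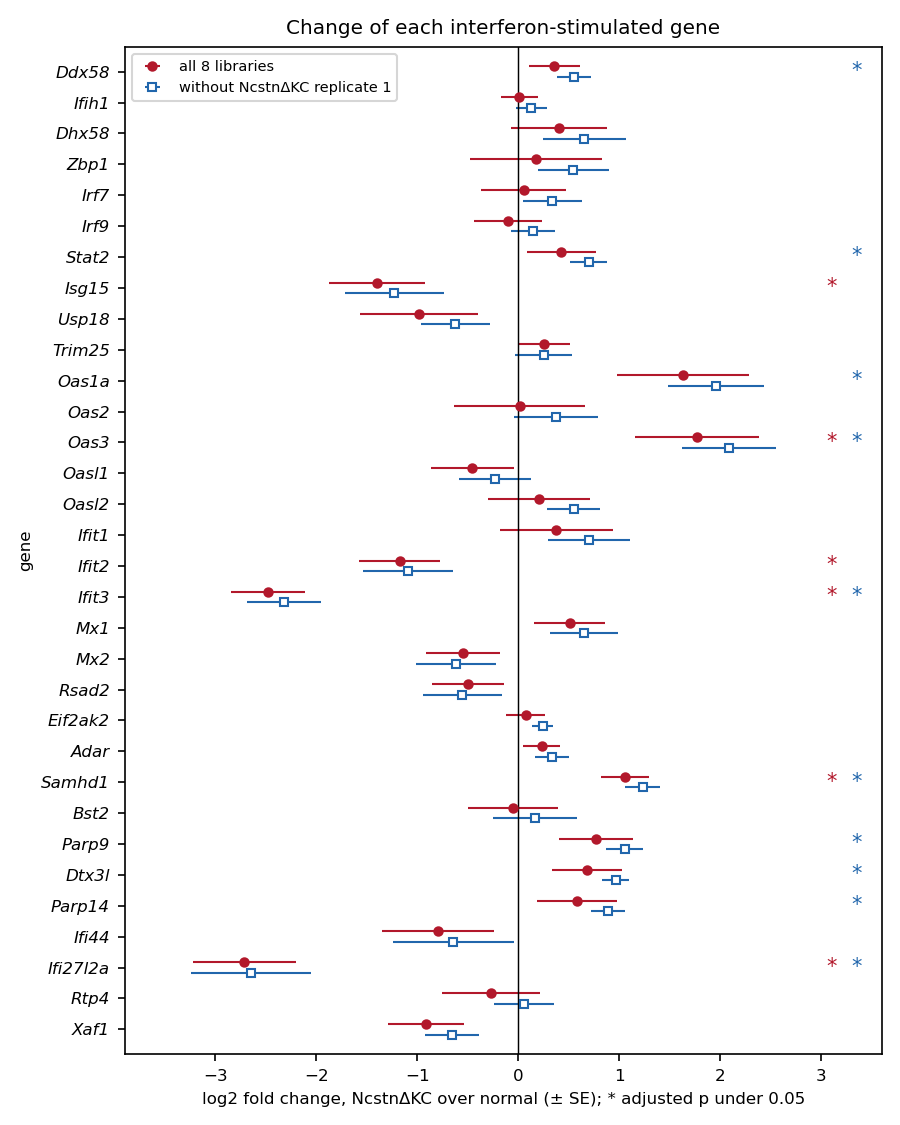
Log2 fold change of each gene, NcstnΔKC over normal, with its standard error, from all 8 libraries (red circles) and without NcstnΔKC replicate 1 (blue squares), and asterisks where the adjusted p was under 0.05. The squares lie to the right of the circles for 29 of 32 genes, and Ifit3 and Ifi27l2a lie furthest left in both fits.

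None of the 4 sensors of foreign nucleic acid was called with all libraries, and 1 was called without NcstnΔKC replicate 1. Ddx58 encodes RIG-I, a sensor of viral RNA. It was 21.3, 42.1, 44.7 and 42.5 CPM in NcstnΔKC replicates 1 to 4, against 33.0, 21.4, 28.8 and 34.5 CPM in normal replicates 1 to 4. Replicate 1 lay just below the lowest normal library, and the other 3 NcstnΔKC libraries were above all normal ones. The log2 fold change was 0.35 ± 0.25 (adjusted p = 0.281), and 0.55 ± 0.17 without replicate 1 (adjusted p = 0.0256). Ifih1, the RNA sensor MDA5, had a log2 fold change of 0.01 ± 0.18, the DNA sensor Zbp1 0.17 ± 0.65, and Dhx58, the regulator LGP2, 0.40 ± 0.48. None of these 3 was called with or without replicate 1. Zbp1 had the largest SE of the 4 and was at 0.839 CPM in NcstnΔKC replicate 1 and 7.24, 13.3 and 11.9 CPM in replicates 2 to 4, against 5.62, 4.03, 9.88 and 9.90 CPM in normal replicates 1 to 4.

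Of the transcription factors, Stat2, the partner of Irf9, was 23.1, 55.4, 82.3 and 74.4 CPM in NcstnΔKC replicates 1 to 4, against 49.2, 33.7, 47.3 and 45.0 CPM in normal replicates 1 to 4. Replicate 1 lay below the normal libraries and the other 3 above them. The log2 fold change was 0.42 ± 0.34 (adjusted p = 0.339), and 0.69 ± 0.18 without replicate 1 (adjusted p = 0.013). Irf9, which gives the complex its DNA contact, had a log2 fold change of -0.10 ± 0.34, and Irf7, the factor that amplifies interferon production, 0.05 ± 0.42. Neither was called with or without replicate 1.

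Within the ISG15 system, Isg15 (chr4:156199424-156200818), the ubiquitin-like protein that is attached to other proteins during the response, was lower in NcstnΔKC skin. It had 6, 6, 24 and 12 counts in NcstnΔKC replicates 1 to 4, against 9, 11, 22 and 18 counts in normal replicates 1 to 4, or 0.503, 0.41, 1.66 and 0.806 CPM against 1.37, 2.22, 3.11 and 2.35 CPM. Only NcstnΔKC replicate 3 reached the range of the normal libraries. Its fold change was, on the log2 scale, -1.40 ± 0.47 (adjusted p = 0.0389). The call rested on single libraries: without NcstnΔKC replicate 1, 2 or 4 the adjusted p was 0.0688, 0.0884 and 0.0867, and without normal replicate 2, 3 or 4 it was 0.0772, 0.126 and 0.0953. With total-count scaling it was -1.06 (adjusted p = 0.0898). Of the annotated sequence of Isg15, 12.8% of 31-base stretches also occur in another gene. Usp18, the protease that removes Isg15 and dampens receptor signalling, was 0.587, 2.73, 7.88 and 5.44 CPM in NcstnΔKC replicates 1 to 4, against 7.44, 6.85, 9.88 and 8.86 CPM in normal replicates 1 to 4. It overlapped the normal libraries in replicate 3 alone and was not called (log2 fold change -0.98 ± 0.58, adjusted p = 0.199). Trim25, the ubiquitin ligase that acts on RIG-I, had a log2 fold change of 0.26 ± 0.25 and was not called.

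The OAS family makes oligoadenylates as messengers of the antiviral response, and 1 of its 5 members was called with all libraries. Oas3 (chr5:120753098-120777661) was 2.52, 9.57, 15.8 and 12.8 CPM in NcstnΔKC replicates 1 to 4, against 1.06, 2.62, 2.26 and 5.86 CPM in normal replicates 1 to 4. Replicates 2 to 4 were above all normal libraries and replicate 1 lay among them. Its log2 fold change was 1.77 ± 0.61 (adjusted p = 0.0434), and 2.09 ± 0.46 without replicate 1 (adjusted p = 0.00711). With basal keratinocyte scaling it was 1.05 (adjusted p = 0.156). Its call ended without NcstnΔKC replicate 2, 3 or 4 (adjusted p = 0.0703, 0.108 and 0.087) and without normal replicate 1, 2 or 3 (0.0786, 0.0785 and 0.09). Oas1a was 0.923, 3.62, 8.36 and 4.90 CPM in NcstnΔKC replicates 1 to 4, against 0.607, 0.806, 2.12 and 2.08 CPM in normal replicates 1 to 4. Replicates 2 to 4 again stood above every normal library. It was not called with all libraries (log2 fold change 1.63 ± 0.65, adjusted p = 0.07) but was without replicate 1 (1.96 ± 0.47, adjusted p = 0.0102). Of its annotated sequence, 68.8% of 31-base stretches also occur in another gene, Oas1g foremost, so its counts are uncertain. Oas2 (log2 fold change 0.01 ± 0.65), Oasl2 (0.21 ± 0.51) and Oasl1 (-0.46 ± 0.41), the last 2 being OAS-like relatives, were not called with or without replicate 1. Oas2 and Oas3 lie side by side on chromosome 5, with Oas1a in the same cluster.

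The IFIT family binds viral RNA that lacks the cap marks of the host, and its 3 members here lie in 1 cluster on chromosome 19. Ifit3 (chr19:34583531-34588731) was 0.839, 1.09, 1.38 and 1.88 CPM in NcstnΔKC replicates 1 to 4, against 5.32, 5.04, 7.76 and 11.1 CPM in normal replicates 1 to 4. All 4 NcstnΔKC libraries lay below all 4 normal ones. Its log2 fold change was -2.48 ± 0.36 (adjusted p = 0.00104), and -2.32 ± 0.37 without replicate 1 (adjusted p = 0.00157). Ifit3 shares 61.8% of its 31-base stretches with other genes, Ifit3b foremost, and Ifit3b had a log2 fold change of -3.16 ± 0.49 (adjusted p = 0.00135), so reads of the pair may be split between them. Ifit2 (chr19:34550694-34576419) was 4.62, 2.53, 6.71 and 8.26 CPM in NcstnΔKC replicates 1 to 4, against 18.8, 13.9, 7.62 and 9.77 CPM in normal replicates 1 to 4. Only NcstnΔKC replicate 4 passed the lowest normal library. The log2 fold change was -1.17 ± 0.40 (adjusted p = 0.0401). It was not called without NcstnΔKC replicate 1, 2 or 3 (adjusted p = 0.0735, 0.0721 and 0.0627) or without normal replicate 1, 2 or 4 (0.136, 0.0924 and 0.0648), nor with total-count scaling (-0.88, adjusted p = 0.118). Ifit1 was 1.43, 3.69, 11.5 and 7.99 CPM in NcstnΔKC replicates 1 to 4, against 3.19, 3.83, 5.08 and 6.78 CPM in normal replicates 1 to 4. It lay below, within and above the normal libraries by turns and was not called (log2 fold change 0.38 ± 0.56, adjusted p = 0.614).

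Among the other antiviral effectors, Samhd1 (chr2:157097533-157135265), the enzyme that breaks down the deoxynucleotides a virus needs to copy itself, was the higher member with the lowest adjusted p. It was 92.9, 136, 181 and 195 CPM in NcstnΔKC replicates 1 to 4, against 75.2, 58.7, 69.0 and 89.1 CPM in normal replicates 1 to 4. Every NcstnΔKC library was above every normal one, replicate 1 by the least. Its log2 fold change was 1.05 ± 0.24 (adjusted p = 0.00737), and 1.23 ± 0.17 without replicate 1 (adjusted p = 0.000992). The call ended with basal keratinocyte scaling (0.38, adjusted p = 0.171) and in the libraries without Xist (0.78, adjusted p = 0.196). Per length, Samhd1 averaged 14.8 ± 5.11 FPKM in NcstnΔKC skin and 5.63 ± 1.26 FPKM in normal skin (SD, n = 4 each). FPKM is the authors' value, scaled to gene length and to the raw column total. It does not use TMM, so its ratio between groups can differ from the fold change. The remaining effectors were not called with or without replicate 1. The GTPases Mx1 and Mx2 had log2 fold changes of 0.51 ± 0.35 and -0.55 ± 0.37, and they share 8.12% and 7.96% of their 31-base stretches with other genes, each most with the other. Rsad2, the radical enzyme viperin, had -0.50 ± 0.36, and Bst2, the tether that holds budding virus, -0.05 ± 0.45. Adar, the editor of double-stranded RNA, had 0.23 ± 0.18, and Eif2ak2, the kinase PKR that stops translation, 0.07 ± 0.20.

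**Figure D4:**
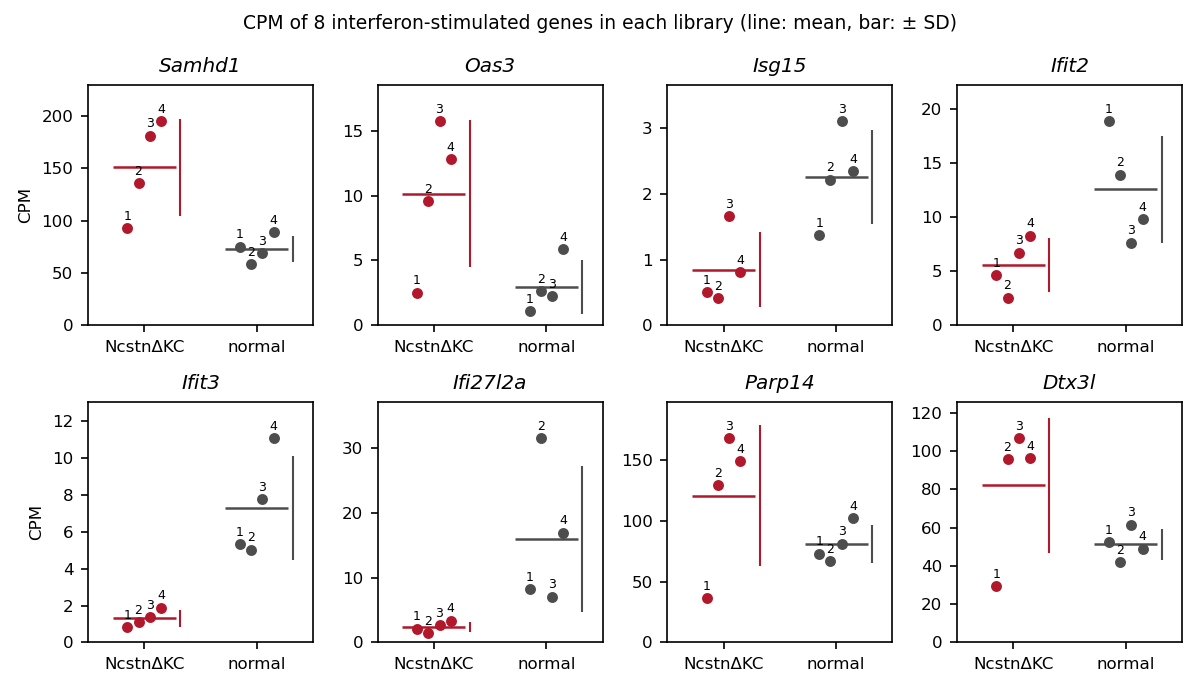
CPM of 8 genes in each library, with replicate numbers beside the points, NcstnΔKC left of normal, the mean as a line and the SD as a bar. Samhd1, Ifit3 and Ifi27l2a have no overlap between groups, and NcstnΔKC replicate 1 lies below the normal libraries for Parp14 and Dtx3l, whose other 3 NcstnΔKC libraries lie above them.

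Parp9, Dtx3l and Parp14 sit together on chromosome 16. Parp9 and the ubiquitin ligase Dtx3l work as a pair, and Parp14 is an ADP-ribosyltransferase. Parp14 was 36.6, 129, 168 and 149 CPM in NcstnΔKC replicates 1 to 4, against 72.9, 66.5, 81.0 and 102 CPM in normal replicates 1 to 4. Dtx3l was 29.5, 95.7, 107 and 96.5 CPM in NcstnΔKC replicates 1 to 4, against 52.4, 42.1, 61.6 and 49.0 CPM in normal replicates 1 to 4. Parp9 was 14.8, 39.0, 58.8 and 52.5 CPM in NcstnΔKC replicates 1 to 4, against 21.4, 22.4, 22.7 and 30.4 CPM in normal replicates 1 to 4. In all 3 genes replicate 1 was the lowest of the 8 libraries and the other 3 NcstnΔKC libraries were above all normal ones. None was called with all libraries: Parp14 had a log2 fold change of 0.58 ± 0.40 (adjusted p = 0.258), Dtx3l 0.68 ± 0.35 (0.142) and Parp9 0.77 ± 0.37 (0.12). Without replicate 1 the values were 0.89 ± 0.16 (adjusted p = 0.00321), 0.96 ± 0.14 (0.00101) and 1.05 ± 0.18 (0.00255). The intervals of Dtx3l and Parp9 overlap on opposite strands, and whether counting used strand is not given in the sources used here, so their counts cannot be fully told apart.

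Of the other induced genes, Ifi27l2a (chr12:103442167-103443680), a small interferon-induced protein, was 2.10, 1.44, 2.70 and 3.36 CPM in NcstnΔKC replicates 1 to 4, against 8.20, 31.4, 7.06 and 16.9 CPM in normal replicates 1 to 4. All NcstnΔKC libraries lay below all normal ones, and normal replicate 2 stood highest. The log2 fold change was -2.71 ± 0.51 (adjusted p = 0.00335), and -2.65 ± 0.59 without replicate 1 (adjusted p = 0.00733). Per length it averaged 5.79 ± 2.14 FPKM in NcstnΔKC skin and 30.2 ± 20.4 FPKM in normal skin (SD, n = 4 each), the highest level of any member in normal skin. Xaf1, a pro-apoptotic zinc finger protein, had a log2 fold change of -0.91 ± 0.37 (adjusted p = 0.0742), Ifi44 -0.80 ± 0.56 (adjusted p = 0.273), and Rtp4, a chaperone of receptors, -0.27 ± 0.49 (adjusted p = 0.675). None of these 3 was called with or without replicate 1.

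The libraries with and without Xist transcripts gave different counts of calls. With Xist, replicates 3 and 4 of each group, 9 of 32 members were higher in NcstnΔKC skin and 3 were lower, with a median log2 fold change of 0.22. In that fit 26.3% of all genes tested were higher and 25.4% were lower. Without Xist, replicates 1 and 2 of each group, 0 of 30 members were called, the median was -0.13, and 4 genes were called in the whole table, 0.0191% of those tested as higher and 0.00638% as lower. The difference between the strata was itself tested. The interaction of group with Xist was called for 0 members and for 0% of all genes tested. The lowest adjusted p among members was 0.769 (edgeR's quasi-likelihood test), and 3 members had p under 0.05 without adjustment. Ifit2 had a log2 fold change of -0.18 with Xist and -2.20 without, and neither was called. Ifit3 and Ifi27l2a had -2.40 and -3.48 without Xist and were not called there either (adjusted p = 0.0954 and 0.0968). NcstnΔKC replicate 1 is in the stratum without Xist, so its part and that of Xist cannot be told apart there.

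The genes upstream of the members were examined by lists, whose counts stand beside 21.4% higher and 22.7% lower over all genes tested. Of 20 ligands of types I and III, none passed the filter and 17 had 0 counts in every library. The other 3, Ifnz, Ifnab and Ifnl3, had 5 counts in all 8 libraries together, too few to compare the groups. Ifng, the interferon-gamma gene, had 2, 11, 7 and 5 counts in NcstnΔKC replicates 1 to 4, against 1, 0, 0 and 2 counts in normal replicates 1 to 4, and did not pass the filter. Of 9 receptor and kinase genes, 3 were higher and 0 lower: Ifnar1, a chain of the type I receptor (log2 fold change 0.70 ± 0.17, adjusted p = 0.00878), Ifngr1 of the interferon-gamma receptor (0.92 ± 0.22, 0.0103) and Jak2, its kinase (0.97 ± 0.24, 0.0102). The other receptor chains, Ifnar2 (0.30 ± 0.18), Ifngr2 (0.45 ± 0.20), Ifnlr1 (-0.12 ± 0.16) and Il10rb (0.29 ± 0.24), were not called. With basal keratinocyte scaling 0 of the 9 were higher and 2 lower, and Ifnar1, Ifngr1 and Jak2 were at 0.02, 0.30 and 0.29 (adjusted p = 0.92, 0.333 and 0.295). With total-count scaling 6 were higher and 0 lower. Of 10 signal transducers and regulators, 2 were higher, among them the feedback inhibitor Socs3 (1.83 ± 0.56, adjusted p = 0.0267), and 2 were lower, the factor Irf2 (-0.71 ± 0.23, 0.0339) and the phosphatase Ptpn6 (-0.99 ± 0.30, 0.0265). Of 15 genes of nucleic acid sensing, 5 were higher, among them the adaptor Tmem173, also called STING (2.24 ± 0.47, adjusted p = 0.00541), Myd88 (1.41 ± 0.20, 0.000917), Traf3 (1.45 ± 0.14, 0.00017) and the kinase Tbk1 (0.96 ± 0.12, 0.000575). With basal keratinocyte scaling 3 were higher and 4 lower, and Tbk1 was at 0.32 (adjusted p = 0.193). Mavs, the adaptor of RIG-I, was the 1 that was lower (-0.85 ± 0.26, adjusted p = 0.0267). Mavs was named after its value was seen. Its call ended without any one of the normal libraries (adjusted p = 0.0556 to 0.0912) and with total-count scaling (-0.51, adjusted p = 0.177). Single libraries also decided the calls of Irf2, Socs3 and Ptpn6. That of Irf2 ended without NcstnΔKC replicate 2 or 3 or any normal one (adjusted p up to 0.11). That of Socs3 ended without replicate 3 or 4 of NcstnΔKC or 2, 3 or 4 of normal (up to 0.0672). That of Ptpn6 ended without NcstnΔKC replicate 2 or normal replicate 1, 3 or 4 (up to 0.0955). Scaling by total counts also ended the calls of Irf2 (-0.37, adjusted p = 0.275) and Ptpn6 (-0.66, 0.135), with 4 of the 10 higher and 0 lower. Scaling by basal keratinocyte genes ended that of Socs3 (1.23, adjusted p = 0.0504), with 0 of the 10 higher and 4 lower.

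Of 42 further interferon-stimulated genes tested, 7 were higher and 7 were lower, with a median log2 fold change of -0.08, beside 21.4% and 22.7% of all genes tested. That balance depended on scaling: 4 were higher and 22 lower with basal keratinocyte scaling, and 8 and 2 with total-count scaling. Ifitm1, which blocks virus entry, was higher (3.23 ± 0.47, adjusted p = 0.000974), as was the helicase Helz2 (0.93 ± 0.13, 0.000796), whereas Ifi205, a DNA-binding protein, was lower (-2.04 ± 0.26, adjusted p = 0.000562). Of 16 GTPases and chemokines of the interferon-gamma response, 3 were higher and 0 lower, with a median of 0.68: Gbp2 (1.85 ± 0.62, adjusted p = 0.0382), Igtp (1.54 ± 0.48, 0.0282) and Ifi47 (2.33 ± 0.55, 0.00878). The chemokine Cxcl9 had 1.62 and was not called. This list also depended on scaling. By basal keratinocyte genes 1 of the 16 was higher and 2 were lower, with a median of 0.03. Gbp2 and Igtp were then not called (adjusted p = 0.112 for each). By total counts 4 were higher and 0 lower. The call of Gbp2 ended without any library but NcstnΔKC replicate 1 (adjusted p up to 0.0931), and that of Igtp without replicate 3 or 4 of NcstnΔKC or 1, 2 or 4 of normal (up to 0.0773). Without NcstnΔKC replicate 1, 8 of these 16 were higher and 0 lower, and 10 of the 42 were higher and 5 lower. In that fit 24.4% of all genes tested were higher and 26% lower. Replicate 1 was below the other NcstnΔKC libraries for 97.6% of the 42 and for 100% of the 16, beside 37.7% of all genes tested.

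**Figure D5:**
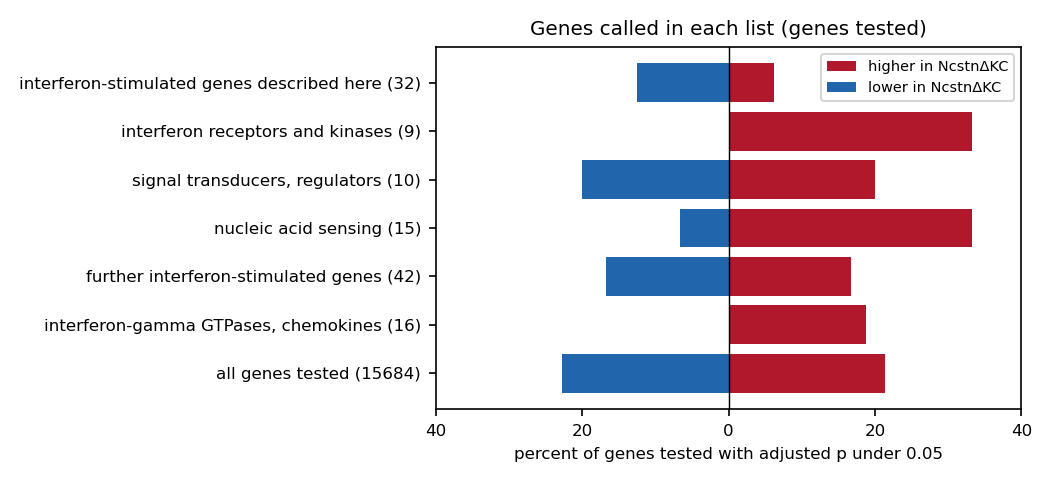
Percent of the genes tested in each list that were higher (right, red) or lower (left, blue) in NcstnΔKC skin at an adjusted p under 0.05, with the number tested in brackets. The 32 genes described here had 6.25% higher and 12.5% lower, beside 21.4% and 22.7% of all genes tested.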

How the data were processed

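Whole-skin RNA was measured in 8 libraries, 4 labelled NcstnΔKC and 4 labelled normal. Per the submitters' processing notes, the tools were TopHat2 2.0.9, TopHat and HTSeq and the builds mm10 and hg38, with no role given. The authors deposited raw whole-number counts per gene and FPKM values. FPKM equalled a constant of each gene times count over column total, within 1%, for all 9175 genes with at least 50 counts in every library. Annotation release, strand setting and handling of multiply mapped reads are not given in the sources used here. Counts were filtered with filterByExpr, scaled by TMM and compared with edgeR 4.0.16's quasi-likelihood test (R 4.3.3, robust, two-sided, Benjamini-Hochberg over 15684 genes, threshold 0.05). SE is the log2 fold change over the square root of F. Alternatives used limma 3.58.1 (log2 of FPKM plus 1, and voom) and DESeq2 1.42.0, other scalings and filters, Xist strata and omission of libraries. The procedure was tested on simulated data. Tables were made with pandas 2.3.3 and numpy 2.4.6 under Python 3.11.15, and plots with matplotlib 3.10.9.

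The libraries held 5835422 to 12893174 counts, and the common biological coefficient of variation was 0.315. No label says that replicates came from separate animals, so p-values measure only the spread between these samples, which may be technical. The 32 members, the other 17 lists and the alternatives were chosen with earlier results of these data known. All members are named. In each of the 6 pathway lists up to 4 genes with the lowest p are named, and ligands with counts and receptors. The 11 marker lists are given as sums, for some with counts of genes by direction. A few genes so chosen are counted in their lists but not reported here. Shared sequence is the share of 31-base stretches also found in another gene of GENCODE M21. Of the members' deposited intervals, 28 of 32 occur there. Shared sequence not given above was 12.5% for Rtp4 and 10.5% for Ifit1.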

Additional observations from a re-analysis of the deposited data

Results flagged for a closer look

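Within each group of 4 libraries, the highest or lowest CPM value was set against the others, and 4 of 64 such groups had a sample far from the rest, by Dixon's criterion on the gap over the range. Chance flags about 1 in 20 groups. Ddx58 was 21.3 CPM in NcstnΔKC replicate 1 and 42.1 to 44.7 CPM in the other NcstnΔKC libraries. Dtx3l was 29.5 CPM in NcstnΔKC replicate 1 and 95.7 to 107 CPM in the others. Ifi44, an interferon-induced gene, was 3.04 CPM in NcstnΔKC replicate 3 and 0.683 to 1.07 CPM in the others. Parp9 was 30.4 CPM in normal replicate 4 and 21.4 to 22.7 CPM in the other normal libraries.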

How the results depend on the processing

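Calls depended on scaling and on single libraries. The count of members higher in NcstnΔKC skin, 2 with all libraries, was 1 with upper-quartile scaling, limma-voom or thinning to the smallest library, 5 with total-count scaling, 0 with scaling by basal keratinocyte genes, 9 in libraries with Xist alone, 0 in libraries without Xist, and 8 without both NcstnΔKC 1 and normal 2. Leaving out 1 library gave 1 to 8, the 8 without NcstnΔKC replicate 1. The count lower, 4, was 2 with total-count scaling, no filter or thinning, 13 with basal keratinocyte scaling and 0 without Xist, and leaving out 1 library gave 2 to 4. The 6915 calls over all genes became 4 without Xist and 3903 at a log2 change of at least 1, and 5619 to 7994 with 1 library left out. The count of interactions with Xist was 0. Basal keratinocyte scaling moved the median of all genes to -0.68, and there Ifih1 (-0.65) and Eif2ak2 (-0.62) turned lower; total-count scaling moved it to 0.29. The causes were not tested. Over 828 values of members under alternatives, 41 lost the call, 35 gained one with the same sign and 2 gained one with the opposite sign. Those 2, Ifih1 and Eif2ak2, were at 0.01 and 0.07 and uncalled with TMM. Another 76 differed in sign with no call in either fit. Only called members could lose a call, so 41 is no share of 828. Calls held in 25 of 26 alternatives for Ifit3 and Ifi27l2a and 24 of 26 for Samhd1. They held in 15 of 26 for Oas3, 14 of 25 for Isg15 and 11 of 26 for Ifit2. Ifit3 and Ifi27l2a lost theirs only in libraries without Xist; Samhd1 lost its call there (0.78) and with basal keratinocyte scaling (0.38). The replicate block gave 3 higher and 3 lower members, and 2923 and 3058 genes. Deviations of same-numbered libraries had correlations of -0.018, -0.032, -0.013 and 0.218, so numbers were not taken as pairs. Depth limited members with few counts a library, such as Isg15 at 6 to 24.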
